A study of Mus musculus with 4 samples.

Results

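The Th17 library was compared with the Th0 library across all genes of the deposited table, and the naive and Treg libraries of the same table were read beside them as levels. Of 34745 genes, 13324 had at least 10 read counts in 1 of the 2 libraries and were compared. The other 21421 lay below that limit, 17129 of them with no count in either library. All cells were CD4+ T cells from the spleens of wild-type C57BL/6 mice, with 1 library per condition, and whether animals had been pooled is not given in the sources used here. Th0 cells had received CD3 and CD28 stimulation over 3 days, while Th17 cells had spent 3 days under conditions that drive Th17 differentiation, whose cytokines are likewise not given. Treg cells had 3 days under regulatory T cell conditions, and naive cells came straight from the spleen. With 1 library on each side there was no replicate, so every interval below is a 95% counting interval, which covers counting error only, and no difference has been checked against biological spread.

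Th17 cells are the helper T cells that secrete interleukin 17 and defend barrier surfaces against bacteria and fungi. In culture they arise when T cell receptor stimulation is joined by TGF-beta and a STAT3-activating cytokine such as interleukin 6, which together switch on the genes of the lineage. They draw on glycolysis and on the hypoxia factor HIF-1, and they share the TGF-beta signal with regulatory T cells. Stimulation without polarizing cytokines, called Th0, gives activated, dividing cells with no fixed lineage.

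Levels are given as CPM, read counts scaled by the effective size of each library (TMM scaling), so 1 count was worth 0.114 CPM in Th0 and 0.0762 CPM in Th17. A gene was called higher or lower in Th17 when its log2 ratio of CPM + 1 was at least 1 in size and the counting interval of the ratio excluded equality. By that rule 2683 genes were higher in Th17 (20.1% of those compared) and 1649 were lower (12.4%), and 8992 met neither rule. The shares of 20.1% and 12.4% are the background for each list count below. A list with shares near them differed little from all genes. The median log2 ratio of all compared genes was 0.09. Among the higher genes, 691 differed at least 4-fold and 167 at least 8-fold on this scale, against 199 and 27 among the lower ones. In 338 compared genes Th0 had 0 counts, and in 35 Th17 had 0. Other scalings were tried, and relative to TMM they moved the median of all genes by 0.28 (library totals), 0.13 (upper quartile) and -0.05 (DESeq2 size factors). A call on a named gene that differs between these 4 scalings is marked as such. Folds in the text are ratios of CPM without the added 1, and against a library with 0 counts they are taken against 3 counts and given as at least that size.

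**Figure D1:**
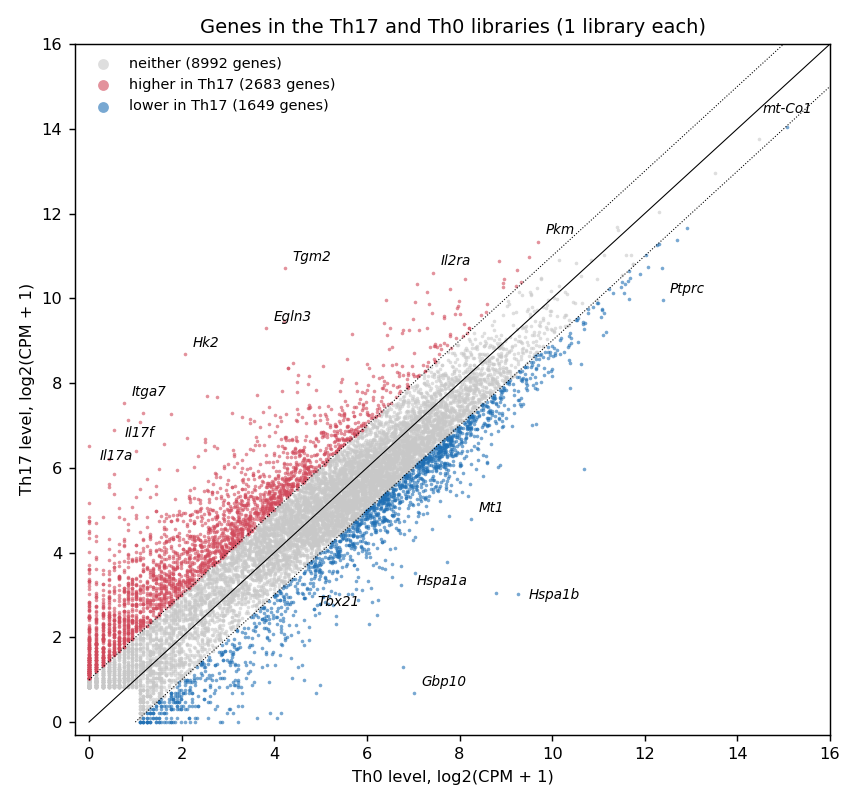
Level of each of the 13324 compared genes in Th0 (horizontal axis) and Th17 (vertical axis), as log2(CPM + 1), 1 point per gene. The solid line is equality and the dotted lines are 2-fold. Red points are the 2683 genes called higher in Th17 and blue points the 1649 called lower, and Hk2, Tgm2 and Itga7 lie far above the line while Gbp10, Hspa1a and Hspa1b lie far below it.

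Total counts were 10272122 in Th0 and 12414372 in Th17, and 11686 and 13043 genes had at least 10 counts. Cd4 had 959 CPM in Th0 and 1001 in Th17 and Cd3e had 382 CPM in Th0 and 205 in Th17. Markers of other cell types were read as whole lists. B cell markers summed to 469.7 CPM in Th0 and 235 in Th17, with 1 of 13 compared called higher and 5 lower, or 3 lower with library totals. Against Treg, where they summed to 110 CPM, 9 of the 13 were higher in Th17 and 0 lower (median 1.27). Of all genes compared between Th17 and Treg, 1.91% were called higher. Dendritic cell markers summed to 223 and 190.0 CPM, with 3 of 6 higher and 1 lower (median 1.11), so sum and median differed in direction. Macrophage and monocyte markers summed to 32.4 and 35.97 CPM, with 3 of 6 higher and none lower (median 0.90), or 0 higher with FPKM. Neutrophil markers summed to 1.37 and 6.40 CPM, with 3 of 4 higher (median 1.24). CD8 T and NK cell markers summed to 163 and 219 CPM, with 1 of 9 higher and 2 lower. Plasma cell markers summed to 122 and 307 CPM, with 2 of 6 higher and 2 lower (median -0.50). Mast cell and basophil markers summed to 11.3 and 138 CPM, and the only compared member, Kit, was higher. Gamma delta and innate-like T cell markers summed to 18.1 and 17.0 CPM, with 0 of 7 called. Sums were 49.5 and 61.2 CPM for stroma and endothelium and 7.21 and 11.6 CPM for erythroid cells and platelets. Of all listed markers, including those below the count limit, 4 of 11 dendritic cell and 4 of 10 neutrophil markers were at 0 counts in Th0, and 3 and 3 in Th17. The part of such cells in the differences below was not tested. In the naive library several of these sums were far larger, at 3971 CPM for B cells, 4595 for macrophages, 1485 for dendritic cells and 1697 for neutrophils. A naive level below may thus come in part from such cells, which was not tested. In bulk RNA, fewer cells of a type and less RNA per cell cannot be told apart. Ratios to Th0 followed the GC content of the transcript. Among 9630 genes at 10 CPM or more, the median log2 ratio of Th17 over Th0 went from -0.41 at a GC content of at most 40% to 0.33 above 61%. Naive over Th0 and Treg over Th0 ran the same way, whereas Th17 over Treg stayed between -0.02 and 0.03, so the trend was seen wherever Th0 was one of the libraries. Length here is the gene length implied by the deposited counts and FPKM, and not a measured transcript length. Genes of at most 500 nt by it had a median of -0.82 and those above 6000 nt one of -0.08. The part of GC content and length in single differences was not tested, and medians centred on them are given below for some of the groups.

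**Figure D2:**
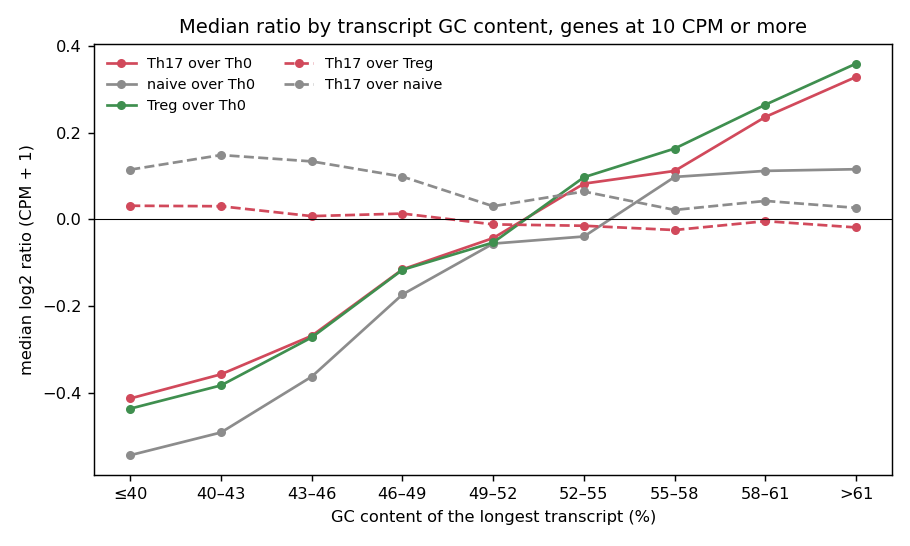
Median log2 ratio (vertical axis) of genes at 10 CPM or more in bins of transcript GC content (horizontal axis, percent), for 5 pairs of libraries. The 3 solid lines have Th0 as the denominator and climb with GC content, from -0.41 to 0.33 for Th17 over Th0, and of the dashed lines, which lack Th0, that of Th17 over Treg stays between -0.02 and 0.03.

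Of 12 compared genes for Th17 cytokines and chemokines, 11 were higher in Th17 and none was lower, with a median log2 ratio of 2.73, or 3.49 without the added 1 and with 0 counts taken as 3 (the bounded median). Il17a (chromosome 1, 20730905 to 20734496, GRCm38) had 0 CPM in Th0, 90.4 in Th17, 14.7 in Treg and 0.245 in naive, from 0 counts in Th0 and 1186 in Th17, so it was at least 263-fold higher. Its neighbour Il17f, which encodes the partner chain of the interleukin 17 heterodimer, had 0.458 CPM in Th0, 118 in Th17, 39.9 in Treg and 0.245 in naive. Both genes were lowest in naive and Th0 and highest in Th17, with Treg between. Il22, whose product acts on epithelia, had 1.03 CPM in Th0, 28.3 in Th17, 3.34 in Treg and 0.0817 in naive and was 27.5-fold (interval 14.3 to 60.7) above Th0. Il24, a cytokine of the interleukin 10 family, had 5.84 CPM in Th0, 202 in Th17, 66.4 in Treg and 0 in naive, and Il21, which acts back on T cells through STAT3, had 18.2 CPM in Th0, 105 in Th17, 32.01 in Treg and 2.53 in naive. Lif, a cytokine of the interleukin 6 family, had 17.4 CPM in Th0, 703 in Th17, 509 in Treg and 9.15 in naive, so both polarized cultures were far above Th0. Tnf was 9.42-fold higher and Csf2 4.31-fold (interval 2.57 to 7.66), and Il2 met neither rule at 3.43 CPM in Th0 and 1.60 in Th17. Ccl20, the ligand of CCR6, had 0 counts in all 4 libraries, and Il9, Il3 and Il23a lay below the count limit. Compared with Treg, 6 of these cytokines were higher and 1, Il2, was lower, where 1.91% and 1.24% of all 13346 genes compared between Th17 and Treg were called.

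Among 14 receptor genes of this programme, 9 were higher in Th17 and none was lower (median 1.11, bounded median 1.86). Ccr6, the chemokine receptor that marks Th17 cells, had 0 CPM in Th0, 25.99 in Th17, 33.4 in Treg and 12.7 in naive, so it was absent from the Th0 counts alone. Il1r1, the interleukin 1 receptor, had 0.572 CPM in Th0, 17.5 in Th17, 9.11 in Treg and 3.67 in naive and was 30.6-fold (interval 12.9 to 95.2) above Th0. Il6ra, which binds interleukin 6, had 42.1 CPM in Th0, 261 in Th17, 181 in Treg and 320.1 in naive, and its signalling partner Il6st met neither rule at 219 CPM in Th0 and 113 in Th17 but was lower with DESeq2 size factors. Il23r, which sustains established Th17 cells, rested on 1 count in Th0 and 19 in Th17, a ratio of 12.6-fold (interval 2.01 to 526). Il17re, at least 13.1-fold higher in Th17, had 0 counts in Th0, whereas the shared receptor chain Il17ra had 162 CPM in Th0 and 182 in Th17.

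**Figure D3:**
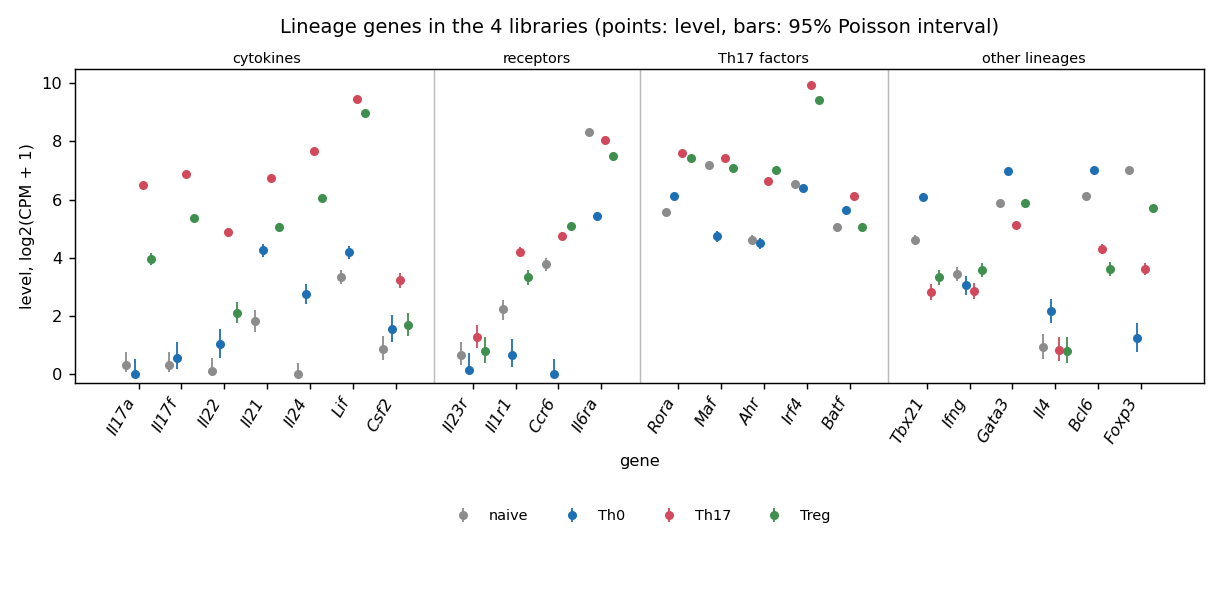
Level of 22 lineage genes in the naive, Th0, Th17 and Treg libraries, as log2(CPM + 1) on the vertical axis, with 1 gene per position on the horizontal axis. Points are the level in 1 library and bars its 95% Poisson counting interval. Il17a and Il17f are highest in Th17, with Treg second, and Tbx21 and Bcl6 are highest in Th0.

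Of 18 Th17 transcription factors compared, 10 were higher, 1 was lower and 7 met neither rule (median 1.66). Rora, an orphan nuclear receptor of the lineage, had 69.03 CPM in Th0, 192 in Th17, 172 in Treg and 46.8 in naive and was 2.79-fold higher. Irf4, a factor that T cell receptor signals induce and that Th17 differentiation needs, had 83.6 CPM in Th0, 995 in Th17, 685 in Treg and 92.8 in naive. Maf, which drives interleukin 21 and interleukin 10, had 25.8 CPM in Th0, 170.1 in Th17, 134 in Treg and 144 in naive, and Ahr, the aryl hydrocarbon receptor, had 21.6 CPM in Th0, 97.8 in Th17, 127 in Treg and 23.7 in naive. For Maf, naive, Th17 and Treg lay close together and Th0 was the low library. Of the AHR target genes, 2 of 7 were higher, among them Cyp1b1, which had 1 count in Th0 and 28 in Th17. Stat3 (477 CPM in Th0 and 556 in Th17), Batf (48.6 CPM in Th0 and 68.4 in Th17) and Hif1a (1834 CPM in Th0 and 1917 in Th17) met neither rule. Ikzf3, which encodes Aiolos, was 2.31-fold lower under 3 of 4 scalings.

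Genes of other helper lineages went both ways. Tbx21, the Th1 factor T-bet, had 67.8 CPM in Th0, 6.10 in Th17, 9.02 in Treg and 23.5 in naive and was 11.1-fold (interval 8.79 to 14.2) lower in Th17. Gata3, the Th2 factor, had 127 CPM in Th0, 33.8 in Th17, 58.7 in Treg and 57.5 in naive, and Bcl6, the factor of follicular helper cells, had 127 CPM in Th0, 18.6 in Th17, 11.2 in Treg and 69.2 in naive. All 3 were higher in Th0 than in the other 3 libraries. Of their cytokines, Ifng met neither rule at 7.33 CPM in Th0 and 6.25 in Th17 and Il4 was lower at 3.55 CPM in Th0 and 0.762 in Th17. Of 14 Th1 genes 4 were higher and 3 lower, or 1 lower with library totals, and Il12rb2 and Runx3 were among the higher ones at 2.66-fold and 2.30-fold. Of 10 Th2 genes 3 were higher and 3 lower, or 1 lower with FPKM, and of 14 follicular helper genes 5 and 4. Tcf7, which encodes TCF-1 of memory-like and follicular cells, had 1517 CPM in Th0 and 499 in Th17 and was 3.04-fold lower, while the follicular receptor genes Pdcd1 and Icos were 8.18-fold and 2.51-fold higher. In the cytotoxic list, Gzmb, which encodes granzyme B, had 147 CPM in Th0, 29.2 in Th17, 25.2 in Treg and 9.96 in naive and Gzma had 44.2 CPM in Th0, 156 in Th17, 190.0 in Treg and 12.5 in naive, so these granzyme genes went in opposite directions.

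Genes of regulatory T cells were higher in Th17 than in Th0 for 14 of 19 members, with 1 lower, or 0 with library totals (median 1.62). Foxp3, which encodes their lineage factor, had 1.37 CPM in Th0, 11.3 in Th17, 51.5 in Treg and 129 in naive and was 8.21-fold (interval 4.56 to 16.3) above Th0. Ikzf4, which encodes Eos, had 21.6 CPM in Th0, 221 in Th17, 277 in Treg and 19.7 in naive, and Il2ra, the alpha chain of the interleukin 2 receptor, had 171 CPM in Th0, 1558 in Th17, 1287 in Treg and 70.97 in naive. Ctla4, an inhibitory receptor, had 258 CPM in Th0, 794 in Th17, 665 in Treg and 155 in naive. For these members the Th17 and Treg cultures were both above Th0. Directly compared with Treg, 0 members were higher in Th17 and 4 were lower, and the median log2 ratio was -0.32.

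In the TGF-beta pathway, ligand genes and some targets were higher in Th17. Tgfb1, the main ligand, had 103 CPM in Th0, 217 in Th17, 275 in Treg and 250.1 in naive. Tgfb3, a ligand that Th17 cells make themselves, had 8.93 CPM in Th0, 145 in Th17, 70.1 in Treg and 3.84 in naive and was 16.2-fold (interval 12.9 to 20.6) higher than in Th0. Furin, a protease that matures TGF-beta precursors, had 126 CPM in Th0, 732 in Th17, 394 in Treg and 89.4 in naive. The receptor gene Tgfbr2 had 143 CPM in Th0, 71.1 in Th17, 165 in Treg and 434 in naive and was 2.02-fold lower, a call met under 2 of 4 scalings, and Tgfbr1 and Smad2 to Smad4 met neither rule. In all, 6 of 18 ligand, receptor and SMAD genes were higher and 1 was lower (median 0.37). Of 17 TGF-beta induced genes, 7 were higher and 1 lower (median 0.70, bounded median 0.87). Skil and Pmepa1, feedback inhibitors of the pathway, were 4.29-fold and 3.57-fold higher, and their Treg levels of 133 and 119 CPM were above their Th17 levels of 107 and 79.6. The inhibitory Smad7 met neither rule at 58.5 CPM in Th0 and 53.1 in Th17. Id3, which holds E proteins in check, had 62.04 CPM in Th0, 14.7 in Th17, 13.2 in Treg and 25.4 in naive, and its relative Id2 had 21.1 CPM in Th0, 99.4 in Th17, 47.97 in Treg and 159 in naive, so the paralogs went opposite ways.

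Receptors and feedback inhibitors of cytokine signals were higher in part. Of 8 genes of the interleukin 2 receptor family 5 were higher and none lower, with Il2rb at 203 CPM in Th0 and 739 in Th17 and Il4ra at 164 CPM in Th0 and 459 in Th17. The common chain Il2rg met neither rule at 318 CPM in Th0 and 384 in Th17. The feedback inhibitor Socs1 had 26.3 CPM in Th0, 172 in Th17, 139.9 in Treg and 25.2 in naive, Socs3, the inhibitor of interleukin 6 signals, had 173 CPM in Th0, 380.5 in Th17, 269 in Treg and 154 in naive, and Cish, a STAT5 target, had 155 CPM in Th0, 339 in Th17, 309.9 in Treg and 42.9 in naive. In that list 5 of 15 were higher and none lower, or 7 higher with library totals. Among 11 JAK and STAT genes, Jak3 was higher and Jak1 and Stat4 lower (644 CPM in Th0 and 1344 in Th17, 967 CPM in Th0 and 424 in Th17 and 248 CPM in Th0 and 121 in Th17), and none of these calls was met under all 4 scalings. Of 18 STAT3 targets 7 were higher and none lower, among them Osm (5.76-fold), Bcl2 (3.75-fold) and Junb (5.40-fold).

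Glycolysis is the breakdown of glucose to pyruvate and lactate. Of 23 genes 14 were higher in Th17 and none was lower (median 1.47, or 1.49 when centred by GC content). Hk2, the hexokinase that T cells induce, had 3.21 CPM in Th0, 407 in Th17, 194 in Treg and 26.7 in naive and was 127-fold (interval 87.9 to 192) above Th0. Slc2a1, which encodes the glucose transporter GLUT1, had 18.5 CPM in Th0, 327 in Th17, 120.3 in Treg and 43.1 in naive, and Slc16a3, the lactate exporter, had 21.6 CPM in Th0, 260.3 in Th17, 149.9 in Treg and 22.2 in naive. Pfkl, a phosphofructokinase of the committed step, had 11.3 CPM in Th0, 211 in Th17, 131 in Treg and 64.6 in naive. Th17 was the highest library and Treg the second for each of these. Pkm, Ldha and Pgk1, the enzymes of the last steps and of the first ATP-forming step, had 831 CPM in Th0 and 2587 in Th17, 497 CPM in Th0 and 1413 in Th17 and 728 CPM in Th0 and 2021 in Th17 and differed by 3.11-fold, 2.85-fold and 2.78-fold. Members that met neither rule included Aldoa at 1135 CPM in Th0 and 1902 in Th17, which was higher with library totals. Against Treg, 3 members were higher and 0 lower (median 0.60).

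Hypoxia targets outside glycolysis were higher for 20 of 32 members, with none lower (median 1.60, or 1.73 when centred by GC content), although Hif1a itself met neither rule. Egln3, the oxygen sensor that HIF-1 induces as feedback, had 13.2 CPM in Th0, 624 in Th17, 198 in Treg and 6.21 in naive and was 47.4-fold (interval 39.5 to 57.5) higher than in Th0. Bnip3, which directs mitochondria to autophagy, had 11.9 CPM in Th0, 124 in Th17, 45.5 in Treg and 6.61 in naive. Ero1l, an oxidase of protein folding in the endoplasmic reticulum, had 81.7 CPM in Th0, 679 in Th17, 148 in Treg and 41.6 in naive, and P4ha2, a collagen prolyl hydroxylase, had 6.98 CPM in Th0, 67.4 in Th17, 19.7 in Treg and 2.78 in naive. Naive and Th0 were low for Egln3, Bnip3 and P4ha2, and Treg lay between Th0 and Th17. Against Treg, 10 of these 32 genes were higher and 0 lower (median 0.79). Among the pathway's own factors, Hif3a had 4.92 CPM in Th0 and 30.6 in Th17 and Arnt, the partner of HIF-1 alpha, had 201 CPM in Th0 and 84.97 in Th17, 2.36-fold lower under 3 of 4 scalings.

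The promoters of many of these genes, but not all, show the letters to which HIF-1 is known to bind. The core of the hypoxia response element, ACGTG or CACGT on the other strand, was searched in the 250 bases before each RefSeq gene start (GRCm38.p6). Within CACGTG it overlaps the E-box read by Myc-like factors. It stood in 8 of 13 glycolysis genes called higher that had such a window and in 13 of 17 hypoxia targets called higher, against 25.4% of all 9494 compared genes with a window and 16.6% of all 32851 windows. Among all compared members with a window, called or not, the core stood in 11 of 22 glycolysis genes and 17 of 26 hypoxia targets. Among genes called higher as a whole the share was also 25.4%. The core was not found for Pfkl, Aldoc, Tpi1, Gapdh, Eno1, Pdk1, Car12, Adm and Stc2. For Pkm, Vegfa, Ak4 and Hilpda it was found only before a later listed start, within their own exons. The hypoxia list holds targets of this pathway by choice, and the glycolysis list includes known targets too, so neither share bears on the calls. A match is a description of the letters and not evidence of binding. The stretches below are 80 bases each, 5′ to 3′ on the gene's strand, with the core in capitals. They come from some of the members called higher that hold the core. Others are not printed, among them Slc2a1, with a larger difference than Ldha and Pgk1.
Hk2, chr6:82774482-82774561, minus strand: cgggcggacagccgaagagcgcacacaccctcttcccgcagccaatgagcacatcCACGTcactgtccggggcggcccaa
Pgk1, chrX:106186914-106186993, plus strand: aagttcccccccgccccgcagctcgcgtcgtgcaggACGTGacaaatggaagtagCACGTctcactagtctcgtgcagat
Ldha, chr7:46845715-46845794, plus strand: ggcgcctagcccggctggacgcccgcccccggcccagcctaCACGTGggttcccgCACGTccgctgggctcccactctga
Egln3, chr12:54204045-54204124, minus strand: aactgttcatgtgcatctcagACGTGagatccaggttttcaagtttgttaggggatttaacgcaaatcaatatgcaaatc
Bnip3, chr7:138909589-138909668, minus strand: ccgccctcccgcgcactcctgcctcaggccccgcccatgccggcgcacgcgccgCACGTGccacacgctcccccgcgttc

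On the mitochondrial side, the nuclear and the mitochondrially encoded respiratory chain lists had medians of opposite sign. Of 33 genes of pyruvate entry and the TCA cycle, 5 were higher (15.2%) and 4 lower (12.1%), and with library totals 7 and 1. Of all compared genes 20.1% were higher and 12.4% lower. Pcx, which feeds pyruvate into the cycle as oxaloacetate, had 2.17 CPM in Th0, 27.4 in Th17, 23.8 in Treg and 4.41 in naive, and Pdk1, which blocks pyruvate dehydrogenase, had 70.4 CPM in Th0, 223 in Th17, 127 in Treg and 219 in naive. For the nuclear respiratory chain list, 14 of 78 members were lower and 1 was higher (median -0.70), and 5 lower with library totals, 8 with upper quartile scaling and 19 with DESeq2 size factors. The higher one was Cox4i2, the hypoxia form of a cytochrome oxidase subunit, with 0 counts in Th0 and 46 in Th17. Atp5e, a subunit of ATP synthase, had 214 CPM in Th0, 52.96 in Th17, 65.5 in Treg and 54.1 in naive and was 4.04-fold lower. Centred by the implied gene length the median of the list was -0.45. Of the 13 mRNAs encoded in mitochondria, 8 were higher and 1 lower (median 1.28). The median was 1.75 centred by GC content and 1.65 centred by length, where none was lower. The sum over these mRNAs was 44996 CPM in Th0 and 33056 in Th17, so sum and median differed in direction. The complex I gene mt-Nd4 had 221 CPM in Th0, 1183 in Th17, 1143 in Treg and 2892 in naive, and mt-Cytb of complex III had 463 CPM in Th0, 1878 in Th17, 1940.5 in Treg and 4258 in naive. The cytochrome oxidase gene mt-Co1 went the other way with 34663 CPM in Th0, 16814 in Th17, 17614 in Treg and 16515 in naive, 2.06-fold lower under 2 of 4 scalings. Th0 was the lowest library for mt-Nd4 and mt-Cytb and the highest for mt-Co1. Counts of mt-Nd6, at 3.32 CPM in Th0 and 103 in Th17, cannot be told from those of the opposite strand, since strandedness is not given.

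Amino acid carriers feed protein synthesis in growing T cells. Of 19 amino acid transporters 8 were higher and 1 lower, or 0 lower with library totals (median 0.82, FPKM median 0.30), with Slc7a5, the large neutral amino acid transporter, at 128 CPM in Th0, 419 in Th17, 235 in Treg and 42.96 in naive. Slc1a5 and Slc7a1, carriers of glutamine and of arginine, were 2.24-fold and 3.02-fold higher. Slc3a2, the partner chain of Slc7a5, met neither rule at 323 CPM in Th0 and 225 in Th17. In glutamine metabolism 4 of 14 were higher, and Gls2 had 2.17 CPM in Th0 and 29.03 in Th17. Among ATF4 and one-carbon genes 10 of 23 were higher and 2 lower, or 1 lower with library totals (median 0.81). Chac1, a glutathione-degrading ATF4 target, had 1.49 CPM in Th0, 19.6 in Th17, 10.01 in Treg and 1.80 in naive, and Trib3, a pseudokinase, had 18.4 CPM in Th0 and 75.98 in Th17. Ddit3, which encodes CHOP, was lower at 205 CPM in Th0 and 87.8 in Th17, met under 3 of 4 scalings. Arg1, which splits arginine and is better known in macrophages, had 0 CPM in Th0, 10.5 in Th17, 16.4 in Treg and 0.490 in naive, from 0 counts in Th0, and 3 of 6 macrophage markers were also called higher, whose part was not tested.

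Lipid genes showed a small number of large differences. Eicosanoid genes had 6 of 14 higher and 1 lower, led by receptors. Cysltr1, a cysteinyl leukotriene receptor, had 0.801 CPM in Th0, 139.8 in Th17, 50.3 in Treg and 2.12 in naive, or 174-fold (interval 84.5 to 434) above Th0. Ltb4r1, the high-affinity leukotriene B4 receptor, had 0.916 CPM in Th0, 32.8 in Th17, 11.5 in Treg and 6.21 in naive, and Cysltr2 had 7.78 CPM in Th0, 76.2 in Th17, 32.1 in Treg and 3.59 in naive. All 3 had their highest level in Th17, and against Treg 4 genes of the list were higher and 0 lower. Of 15 lysophospholipid acyltransferases, which rebuild membrane lipids, 6 were higher and none lower (median 0.80), or 9 higher with library totals. Gpam, the first enzyme of glycerolipid synthesis, had 5.15 CPM in Th0 and 15.01 in Th17, and Mboat2 had 0.916 CPM in Th0 and 4.34 in Th17. In fatty acid synthesis 7 of 22 were higher and 1 lower, or 0 lower with library totals, with the elongase Elovl6 at 31.1 CPM in Th0 and 114 in Th17 and the desaturase Scd1 at 43.7 CPM in Th0 and 138 in Th17. Cholesterol synthesis had 1 higher and 2 lower of 24, or 3 and 1 with library totals. In fatty acid oxidation 3 were higher and 4 lower of 21, and Cpt1a, the mitochondrial entry step, had 134 CPM in Th0 and 49.5 in Th17 (2.71-fold lower). Sphk1, which makes sphingosine 1-phosphate, had 0 counts in Th0 and 31 in Th17, while Ugcg, which makes glucosylceramide, had 799.9 CPM in Th0, 130.2 in Th17, 146 in Treg and 269 in naive and was 6.15-fold (interval 5.83 to 6.48) lower.

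Ribosomal protein genes and the genes that build ribosomes went in opposite directions. Of 83 cytosolic ribosomal protein genes 66 were lower in Th17 and 2 were higher (median -1.24), and with library totals 35 were lower (median -0.93). The 2 higher members, Rps4l and Rpl7l1, are relatives of ribosomal proteins rather than standard subunits. Rps20 had 2296 CPM in Th0, 589.6 in Th17, 645 in Treg and 455 in naive, and Rpl22l1, a paralog of Rpl22, had 221 CPM in Th0, 43.1 in Th17, 27.5 in Treg and 37.8 in naive. Centred by GC content 59 members were lower, and centred by length 52 (medians -1.22 and -1.13). Against Treg no member was called in either direction. Of 30 ribosome biogenesis genes 18 were higher and none lower (median 1.22, or 1.27 when centred by GC content). Polr1b, a subunit of RNA polymerase I, had 2.63 CPM in Th0, 37.4 in Th17, 25.5 in Treg and 45.4 in naive, and Rrp12, an exporter of pre-ribosomes, had 5.61 CPM in Th0, 57.9 in Th17, 42.5 in Treg and 43.04 in naive. Bop1, which processes the large subunit's RNA, had 8.81 CPM in Th0, 72.2 in Th17, 63.7 in Treg and 80.2 in naive, and here naive, Th17 and Treg were alike and Th0 was the low library. The elongation factor gene Eef1a1 met neither rule at 22682 CPM in Th0 and 13924 in Th17, and neither did Eef2 at 11770.0 CPM in Th0 and 7985 in Th17. Translation initiation factors had 5 higher and 10 lower of 57, and with library totals 10 and 1.

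**Figure D4:**
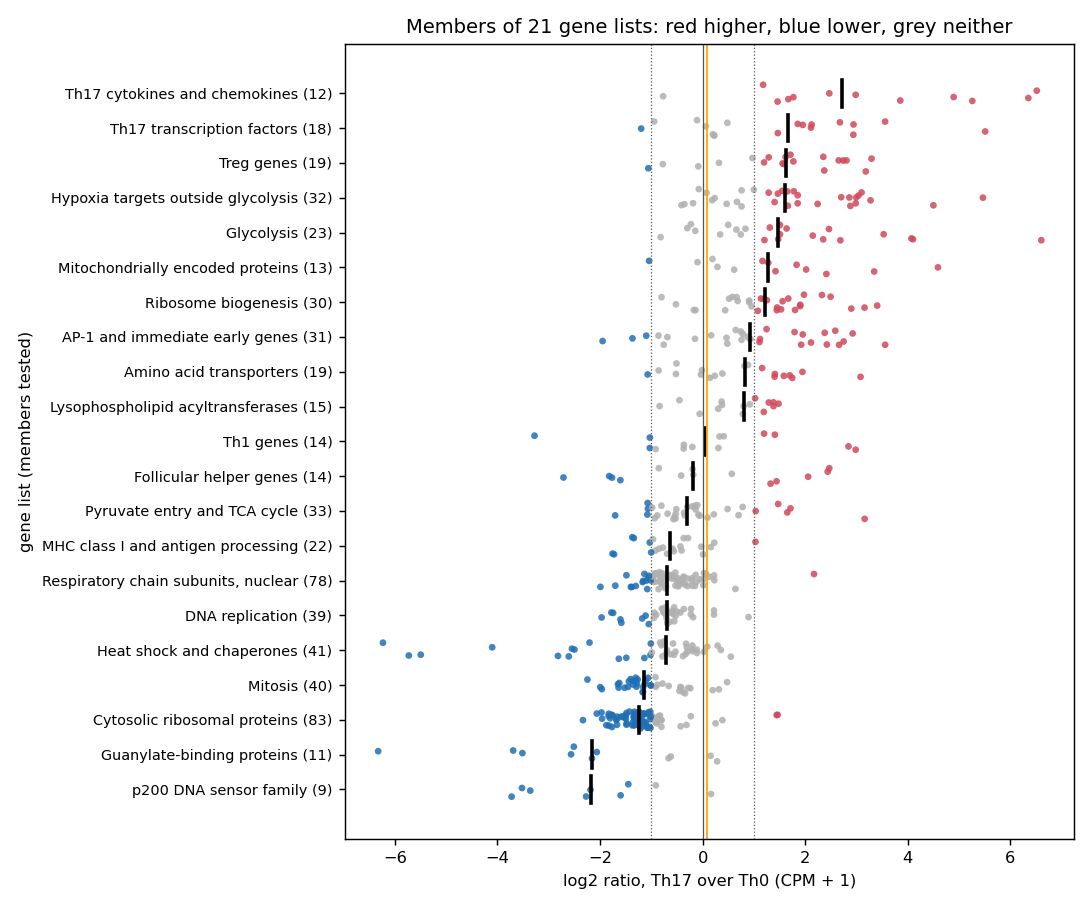
Log2 ratio of Th17 over Th0 (horizontal axis, CPM + 1) for each compared member of 21 gene lists (vertical axis, with the number compared). Points are genes, red when called higher, blue when called lower and grey when neither, black bars are list medians, the orange line is the median of all genes (0.09) and the dotted lines are 2-fold. Medians run from 2.73 for Th17 cytokines to -2.19 for the p200 family, and that of follicular helper genes turns from -0.19 to 0.12 with library totals, where that of TCA cycle genes turns from -0.30 to 0.00.

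Of the genes of cell division, many of mitosis and fewer of replication were called lower. Of 40 mitosis genes 25 were lower and none higher (median -1.14), with 12 lower under library totals, 20 under upper quartile scaling and 19 when centred by GC content. Kif18a, a motor that aligns chromosomes, had 137 CPM in Th0, 28.1 in Th17, 30.8 in Treg and 5.80 in naive and was 4.87-fold (interval 4.33 to 5.49) lower. Nuf2, part of the kinetochore, had 136 CPM in Th0, 34.1 in Th17, 44.7 in Treg and 10.9 in naive. Both were lowest in naive, highest in Th0 and intermediate in Th17 and Treg. Of 39 replication genes 8 were lower and none higher (median -0.70), or 5 lower with library totals. Cdc7, the kinase that fires origins, had 154 CPM in Th0, 38.6 in Th17, 41.5 in Treg and 24.7 in naive, and the origin protein Orc6 had 58.4 CPM in Th0, 16.3 in Th17, 22.99 in Treg and 12.7 in naive. Replication-dependent histones had 10 of 18 compared members lower and none higher, or 6 lower when centred by length (medians -1.22 and -0.92), and many of them have near-identical copies. Of 70 such genes in the table the others had too few counts to be compared. In DNA repair 9 of 30 were lower and none higher, or 5 lower and 1 higher with library totals and 5 and 1 centred by GC content, with Rad51ap1 at 118 CPM in Th0 and 28.1 in Th17. Of 24 G1 regulators 4 were higher (16.7%) and 5 lower (20.8%), against 20.1% and 12.4% of all compared genes (median -0.25). With library totals 6 were higher and 0 lower. Ccnd2 was 5.06-fold higher at 277 CPM in Th0 and 1399 in Th17, and Cdk6 was 4.09-fold higher. The inhibitor Cdkn1b was lower at 468 CPM in Th0 and 199.7 in Th17, met under 3 of 4 scalings. Of p53 targets 9 of 23 were lower and 3 higher, with the death receptor gene Fas at 191 CPM in Th0, 46.6 in Th17, 49.1 in Treg and 24.6 in naive.

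Heat shock genes held some of the largest differences in the comparison. Hspa1b (chromosome 17, 34956436 to 34959238) had 612 CPM in Th0, 7.16 in Th17, 1.80 in Treg and 20.9 in naive, and Hspa1a beside it had 439 CPM in Th0, 7.32 in Th17, 2.71 in Treg and 16.4 in naive. These near-identical genes encode inducible HSP70, and their folds were 85.5-fold (interval 69.7 to 106) and 60.1-fold (interval 49.1 to 74.3) lower in Th17. Hspa1l, their neighbour, had 109 CPM in Th0, 1.45 in Th17, 0.361 in Treg and 4.74 in naive, and the small chaperone gene Hspb1 had 30.6 CPM in Th0, 0.838 in Th17, 0.0902 in Treg and 0.490 in naive. For these 4 genes Th0 alone was high, and naive, Th17 and Treg were all low. Hsp90aa1, the inducible HSP90, had 1342 CPM in Th0, 237 in Th17, 191 in Treg and 422 in naive, Dnaja1, a co-chaperone of HSP70, had 470.5 CPM in Th0, 65.8 in Th17, 72.95 in Treg and 302 in naive, and Hsph1, which recharges HSP70, had 298 CPM in Th0, 48.01 in Th17, 52.5 in Treg and 402 in naive. For Dnaja1 and Hsph1 naive was nearer to Th0 than to Th17 and Treg. Of 41 members 14 were lower and none higher (median -0.71), with 11 lower under library totals. The factor gene Hsf1 met neither rule at 47.96 CPM in Th0 and 51.1 in Th17, as did the endoplasmic reticulum chaperone Hspa5 at 182 CPM in Th0 and 216 in Th17. Hsp90aa1, Hsf1, Hspa5, Hspe1 and Hspd1 were chosen after their values were seen.

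The heat shock element, to which HSF1 is known to bind, was searched in the same windows as the triplets GAA, TTC and GAA, or TTC, GAA and TTC, each separated by 2 bases of any kind. It stood in 3 of 11 heat shock genes called lower that had a window and in 3 of 34 compared, against 0.411% of all compared genes with a window. The windows of Hspa1a and Hspa1b do not hold these strict letters. Hspe1 and Hspd1, which encode the mitochondrial chaperonin pair HSP10 and HSP60, share a promoter on chromosome 1, and the same site was read from each side. That site lies within annotated exons of Hspd1, and for Hspd1 it was matched only before the second listed gene start. These genes thus share a single site, and the other gene of the 3 is Dnajb6. Hspe1 had 757 CPM in Th0, 129 in Th17, 120.5 in Treg and 117 in naive and Hspd1 had 429 CPM in Th0, 195 in Th17, 163 in Treg and 246 in naive, 5.88-fold and 2.20-fold lower in Th17, the latter met under 2 of 4 scalings. The sites are given 5′ to 3′ on each gene's strand with 5 flanking bases, and the element is in capitals.
Hspe1, chr1:55088054-55088081, plus strand: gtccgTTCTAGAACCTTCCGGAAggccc
Hspd1, chr1:55088054-55088081, minus strand: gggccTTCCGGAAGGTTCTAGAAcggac

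Metallothionein genes, which encode zinc-binding proteins, were lower as well. Mt1 (chromosome 8, 94179089 to 94180325) had 304 CPM in Th0, 26.6 in Th17, 12.2 in Treg and 7.35 in naive, and Mt2 had 212 CPM in Th0, 12.8 in Th17, 7.48 in Treg and 1.88 in naive, so they were 11.4-fold (interval 10.2 to 12.8) and 16.6-fold (interval 14.2 to 19.5) lower in Th17. Slc30a1, the zinc exporter that shares their metal-responsive control, had 52.5 CPM in Th0 and 16.4 in Th17 and was 3.21-fold lower. Of 8 compared zinc importers of the Slc39a family 4 were higher and none lower, with Slc39a14 at 23.9 CPM in Th0, 80.2 in Th17, 62.9 in Treg and 22.4 in naive and Slc39a6 at 17.97 CPM in Th0, 52.4 in Th17, 52.4 in Treg and 41.98 in naive. In the list as a whole 4 of 18 were higher and 4 lower (22.2% each), against 20.1% and 12.4% of all compared genes. The metal sensor Mtf1 met neither rule at 19.3 CPM in Th0 and 30.02 in Th17.

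Most members of the guanylate-binding and p200 families, which interferons induce, were lower in Th17. Of 11 entries for guanylate-binding proteins, GTPases that attack intracellular pathogens, 7 were lower and none higher (median -2.16). Gbp6 stands for 2 of the 7 lower entries, which overlap each other, and Gbp10 is near-identical to and overlaps 1 of them. Gbp4, Gbp8 and Gbp9 share exons, so these calls are not independent of each other. Gbp10 had 128 CPM in Th0, 0.610 in Th17, 0.451 in Treg and 16.01 in naive, or 209.9-fold (interval 106 to 487) lower. Gbp4, Gbp8 and Gbp9 were also lower in Th17. Gbp4 had 242 CPM in Th0, 40.2 in Th17, 33.6 in Treg and 230.1 in naive. Gbp8 had 102 CPM in Th0, 22.02 in Th17, 17.4 in Treg and 98.98 in naive. Gbp9 had 111 CPM in Th0, 25.8 in Th17, 22.8 in Treg and 255 in naive, so naive and Th0 were the high libraries for all 3. Gbp4, Gbp6, Gbp8, Gbp9 and Gbp10 lie on chromosome 5, where Gbp11 met neither rule, while Gbp2, Gbp3 and Gbp5 on chromosome 3 met neither rule (45.7 CPM in Th0 and 55.8 in Th17, 21.6 CPM in Th0 and 13.7 in Th17 and 62.04 CPM in Th0 and 69.2 in Th17). Gbp7, also on chromosome 3, was 6.96-fold lower, so calls were not divided by chromosome. Of 9 p200 family genes, which include DNA sensors and sit in a cluster on chromosome 1, 7 were lower and none higher (median -2.19, bounded median -3.17). With FPKM 5 were lower (median -1.17). The lower ones include the near-identical Pydc3 and Pydc4, and Ifi203 and Mndal, which share exons, so the calls are not independent of each other. Ifi203 had 64.6 CPM in Th0, 3.96 in Th17, 8.57 in Treg and 488 in naive, Pyhin1 had 74.98 CPM in Th0, 6.40 in Th17, 11.00 in Treg and 341 in naive and Aim2, the sensor that starts an inflammasome, had 80.7 CPM in Th0, 25.99 in Th17, 33.8 in Treg and 41.1 in naive. For Ifi203 and Pyhin1 the naive level was the highest of the 4, in the library with the large macrophage and B cell marker sums. Of 9 immunity-related GTPase genes 2 were higher and 0 lower (median 0.88, FPKM median 0.33), or 3 higher with library totals. The sum over that list was 326 CPM in Th0 and 249 in Th17, so sum and median differed in direction. Type I interferon-stimulated genes had 3 higher (12%) and 4 lower (16%) of 25, against 20.1% and 12.4% of all compared genes. Library totals gave 2 lower calls. Eif2ak2, the kinase PKR, was 4.61-fold higher. In the MHC class I list 6 of 22 members were called lower and 1 called higher (median -0.64), and with FPKM 3 were called lower (median -0.32), and H2-Q6 had 438 CPM in Th0 and 132 in Th17.

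**Figure D5:**
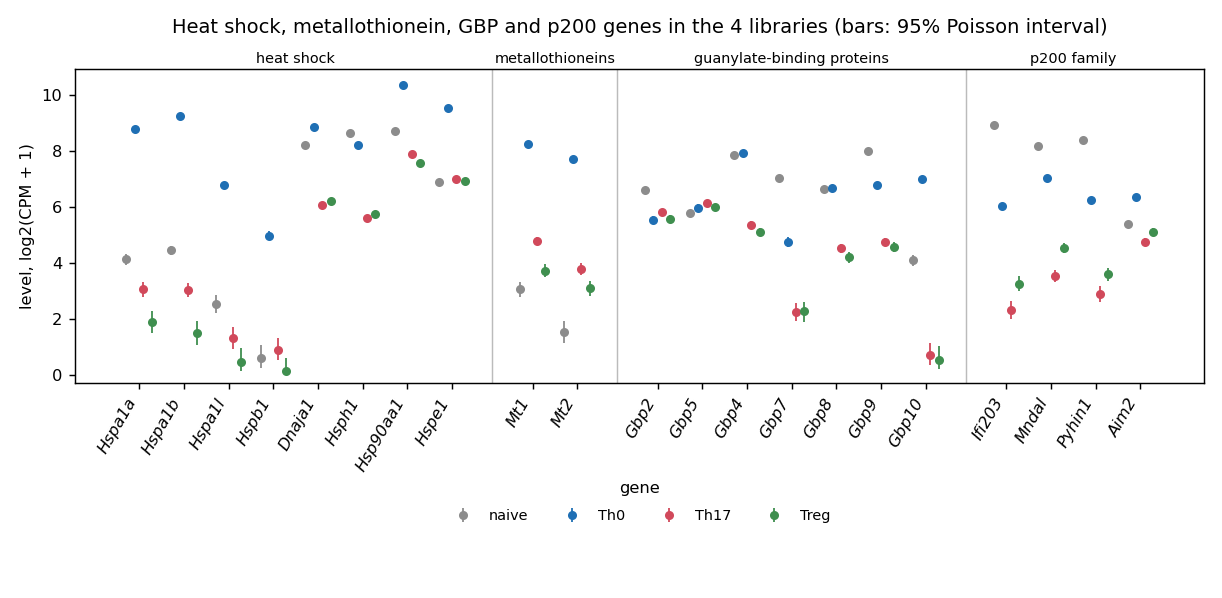
Level of 21 genes of the heat shock, metallothionein, guanylate-binding and p200 groups in the naive, Th0, Th17 and Treg libraries, as log2(CPM + 1) on the vertical axis, with 1 gene per position on the horizontal axis. Points are the level in 1 library and bars its 95% Poisson counting interval. Hspa1a, Hspa1b, Mt1, Mt2 and Gbp10 are highest in Th0, Ifi203 and Pyhin1 are highest in naive, and Gbp2 and Gbp5 differ little.

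Chemokine receptors guide T cells to tissues. Of 12 chemokine receptor genes 7 were higher and none lower (median 1.92, bounded median 2.20, FPKM median 1.26). Ccr4, which guides cells to skin, had 12.5 CPM in Th0, 158 in Th17, 143 in Treg and 15.4 in naive, and Ccr2 had 2.40 CPM in Th0, 16.8 in Th17, 5.14 in Treg and 45.8 in naive. Among TNF and TNF receptor genes 13 of 35 were higher and 2 lower. Lta, lymphotoxin alpha, had 7.44 CPM in Th0, 156 in Th17, 148 in Treg and 17.2 in naive and was 21.01-fold (interval 16.4 to 27.3) higher. Tnfsf11, which encodes RANKL, had 0.687 CPM in Th0, 16.99 in Th17, 20.5 in Treg and 13.9 in naive, and Tnfrsf8, which encodes CD30, had 8.13 CPM in Th0, 68.4 in Th17, 17.1 in Treg and 3.35 in naive. Traf5 was lower at 83.4 CPM in Th0 and 13.3 in Th17. Checkpoint and costimulatory receptors had 10 of 25 higher and 1 lower. Cd80 and Cd86, ligands better known on antigen-presenting cells, were 4.67-fold and 3.88-fold higher, and 3 of 6 dendritic cell and 3 of 6 macrophage markers were also called higher, whose part was not tested. The mast cell and stem cell receptor gene Kit had 10.9 CPM in Th0, 137 in Th17, 222 in Treg and 51.9 in naive, while Cpa3, Fcer1a and Mcpt4 of mast cells lay below the count limit.

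Adhesion genes were led by Itga7, which encodes a laminin-binding integrin chain. Itga7 (chromosome 10, 128933813 to 128958277) had 0.687 CPM in Th0, 183 in Th17, 42.8 in Treg and 8.57 in naive, from 6 counts in Th0 and 2397 in Th17, and was 266-fold (interval 122 to 725) higher. Itga3, another laminin receptor chain, had 21.7 CPM in Th0, 152 in Th17, 59.97 in Treg and 6.61 in naive, and the laminin gene Lama5 had 98.1 CPM in Th0, 351 in Th17, 450.4 in Treg and 0.817 in naive. Of 27 integrin and laminin genes 11 were higher and 2 lower (median 0.65, bounded median 0.93, FPKM median 0.28). Against Treg 3 were higher and 2 lower.

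Among T cell identity genes 18 of 24 met neither rule, 2 were higher (8.3%) and 4 lower (16.7%), against 20.1% and 12.4% of all compared genes. Of the signalling genes, Ptprc encodes the phosphatase CD45 of all leukocytes. Ptprc (chromosome 1, 138062861 to 138175708) had 5357 CPM in Th0, 988 in Th17, 1062 in Treg and 1989.5 in naive and was 5.42-fold (interval 5.32 to 5.53) lower in Th17, so Th0 was the highest library. In T cell receptor signalling 8 of 40 were lower and 3 higher, and with library totals 5 and 9. The phosphatase gene Dusp10 had 65.02 CPM in Th0 and 14.9 in Th17 (4.35-fold lower), and Ptpn22, a brake on receptor signals, had 609 CPM in Th0 and 194 in Th17. Immediate early genes were higher for 14 of 31 and lower for 3, or 1 with FPKM (median 0.93), with Fosl1 at 1.14 CPM in Th0 and 13.4 in Th17, Ier3 at 9.50 CPM in Th0 and 78.7 in Th17 and Egr1 at 21.2 CPM in Th0 and 139 in Th17. Of NF-kappaB genes 4 of 23 were higher (17.4%) and 2 lower (8.7%), both below the shares of all compared genes (20.1% and 12.4%). Nfkb2 had 76.1 CPM in Th0 and 276 in Th17 while Rel had 456 CPM in Th0 and 176 in Th17.

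Chromatin and survival genes differed singly. Ezh2, the methyltransferase of H3K27, had 327 CPM in Th0, 62.1 in Th17, 77.2 in Treg and 50.8 in naive and was 5.26-fold (interval 4.86 to 5.69) lower, and the demethylase gene Kdm6a had 229.7 CPM in Th0, 70.03 in Th17, 65.6 in Treg and 87.1 in naive. Aebp2, an accessory subunit of the same complex, was 2.70-fold higher. The H3K36 methyltransferase genes Setd2 and Whsc1 were 2.28-fold and 2.82-fold lower, the former under 3 of 4 scalings, and Smyd2 was 5.66-fold higher. Lpcat4, the acyltransferase, met neither rule at 60.6 CPM in Th0 and 43.97 in Th17. Of 33 Bcl2 family and death genes 2 were higher and 8 lower, or 5 and 7 with library totals. The survival gene Bcl2 had 203 CPM in Th0, 763 in Th17, 595 in Treg and 167 in naive. Of 34 lysosome and autophagy genes 3 were lower (8.8%, against 12.4% of all compared genes) and 0 higher, or 2 lower with library totals. Map1lc3b, which encodes LC3B, was 7.75-fold lower, at 219 CPM in Th0, 28.3 in Th17, 55.2 in Treg and 95.5 in naive. The starter kinase gene Ulk1 was also lower at 263 CPM in Th0 and 80.3 in Th17.

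The rankings here leave out mitochondrial and predicted genes, T cell receptor and immunoglobulin segments and pseudogenes. Among the other genes the largest rises in CPM were those of Pkm, Tgm2 and Il2ra. Tgm2 (chromosome 2, 158116402 to 158146436), which encodes a protein-crosslinking transglutaminase, had 17.9 CPM in Th0, 1670.3 in Th17, 1115 in Treg and 188 in naive, or 93.5-fold (interval 79.9 to 110.2) above Th0. Ecm1, a secreted matrix protein gene, had 134 CPM in Th0, 1296 in Th17, 1060.3 in Treg and 60.1 in naive, and Igfbp4, which binds insulin-like growth factors, had 131 CPM in Th0, 959.6 in Th17, 1039 in Treg and 345 in naive. Among the highest ratios outside the lists, Scrt1, a zinc finger repressor gene better known in neurons, had 1.26 CPM in Th0, 155 in Th17, 0.271 in Treg and 0.245 in naive and was 122.98-fold (interval 68.6 to 247) higher. Gipr, the receptor of an incretin hormone, had 1.14 CPM in Th0, 134 in Th17, 12.5 in Treg and 0 in naive, and Myof, a membrane repair gene, had 1.03 CPM in Th0, 83.2 in Th17, 149.8 in Treg and 31.3 in naive. In Scrt1 and Gipr the Treg level lay well below the Th17 level, with log2 ratios of Th17 over Treg of 6.94 and 3.32. S1pr3, a sphingosine 1-phosphate receptor, had 0.458 CPM in Th0, 40.9 in Th17, 38.8 in Treg and 8.90 in naive. Gemin4, of the complex that assembles spliceosomal particles, had 0 CPM in Th0, 21.6 in Th17, 20.5 in Treg and 15.1 in naive, so Th0 alone was at 0 counts. Among the lowest ratios outside the lists were Vav3, an exchange factor of receptor signals, at 91.8 CPM in Th0, 9.75 in Th17, 9.74 in Treg and 28.7 in naive, Cd7 at 39.4 CPM in Th0, 3.96 in Th17, 3.52 in Treg and 60.2 in naive and Cldn10 at 23.8 CPM in Th0, 0.991 in Th17, 0.180 in Treg and 1.31 in naive.

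Just inside the 2-fold limit among the higher genes lay Arfgap1 (33.2 CPM in Th0 and 67.4 in Th17) and Mxd1 (117 CPM in Th0 and 235 in Th17), and just outside it Aldh18a1 (115 CPM in Th0 and 231 in Th17) and Mif (166 CPM in Th0 and 333 in Th17). The first pair lost its call with DESeq2 size factors, and the second gained one with library totals and upper quartile scaling. Among the lower genes Tpmt (10.8 CPM in Th0 and 4.88 in Th17) and E4f1 (69.8 CPM in Th0 and 34.4 in Th17) lay just inside and Ccnt2 (248 CPM in Th0 and 123.45 in Th17) and Adss (325 CPM in Th0 and 162 in Th17) just outside. Here the first pair lost its call with library totals and upper quartile scaling, and the second gained one with DESeq2 size factors.

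Counts of some named genes are uncertain because a near-identical or overlapping gene could take their reads. Near-identical copies or shared stretches were found for Il22, Il12rb2, Fosl1, Foxp3, Gbp6 and Gbp10, Hspa1a and Hspa1b, Hspa1l, Dnaja1, Mndal, Pgk1, Gemin4, mt-Co1 and mt-Nd4, among others, and for Rps2 and other ribosomal protein genes. Exons of Gbp4, Gbp8 and Gbp9 overlap on the same strand, as do those of Ifi203 and Mndal, and genes that overlap another on the opposite strand include Il21, Ccnd2, Junb, Il6ra, Tgm2, Stat3, Ddit3, Jak1 and Kif18a, and how strand was counted is not given in the sources used here.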

How the data were processed

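The deposited table holds read counts per gene, which the authors gave as whole numbers without normalization per the file headers, and FPKM values beside them. Bowtie2, RSEM and the builds GRCm38.p6 and mm10 are named in the submitters' processing notes, with no version or role. How strand was counted is not given in the sources used here. If the counts are RSEM estimates, reads shared by similar genes were divided between them. Total counts were 10272122 in Th0, 12414372 in Th17, 10256627 in Treg and 11901949 in naive.

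CPM used TMM factors from edgeR 4.0.16 in R 4.3.3 (0.850 in Th0 and 1.06 in Th17). Ratios took a pseudocount of 1 CPM. Intervals were exact 95% intervals of a count ratio (Clopper-Pearson) or of a count (Poisson), from scipy 1.17.1 in Python 3.11.15 with numpy 2.4.6 and pandas 2.3.3. PCR reads without molecular identifiers are not independent molecules. With 1 library per group no significance test was run and no p-value is given. The script that makes the calls was checked on simulated counts. Figures used matplotlib 3.10.9.

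Alternatives were library totals, upper quartile factors, DESeq2 1.42.0 size factors, TMM over the 2 libraries alone, pseudocounts of 0.25 and 4, count minimums of 1 and 50, the deposited FPKM and a 99% interval. Centring on 20 bins of GC content or length was added after seeing the data. GC content was that of the longest transcript, and length was the gene length implied by counts and FPKM. Near-identical copies were found with minimap2 2.31-r1302, as alignments of at least 300 nt at 95% identity. Promoter windows are RefSeq's, and transcripts and exons GENCODE's.

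The comparison and the 86 gene lists were chosen with earlier results of these data known. Genes were named by these rules: the 25 highest and 25 lowest ratios at 10 CPM or more, the 12 largest rises and 12 largest falls in CPM, up to 6 members of each list with the largest ratios, every member of a list of up to 20, fixed lineage genes, and 5 genes at each side of the limits. The rankings by ratio and CPM and the genes at the limits left out mitochondrial and predicted genes, T cell receptor and immunoglobulin segments and pseudogenes. H1f0 and H19 were taken out of the histone list after values were seen. The initiation factor list is every symbol that starts with Eif, kinases and pseudogenes included. Some genes of the lists are not reported here by name.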

Additional observations from a re-analysis of the deposited data

How the results depend on the processing

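With 1 library per group, no replicate could be left out. No paired analysis was possible because each group has 1 library and no test was run. The count of genes lower in Th17 was 922 with library totals and 681 with FPKM and a pseudocount of 1, against 1649, and the count of higher genes was 1618 with a pseudocount of 4, against 2683. Of all calls, 61.9% were higher, against 79.3% with library totals and 76.2% with FPKM. The other planned settings kept both counts within 1.5 times. The 99% interval among them gave the same 2683 and 1649 calls, so widening the interval decided no call. Centring by GC content, chosen after seeing the data, gave 2906 higher and 1345 lower genes, and kept 93.4% of the higher and 74.5% of the lower calls. Centring by length, likewise chosen later, gave 3055 and 1328 and kept 99.03% and 79.3%. Of 798 named genes, 711 had the same call with library totals, 672 with FPKM, 717 with a pseudocount of 4, 735 centred by GC content and 756 centred by length. None changed direction from one call to the other, which these settings could hardly have produced. A reversal must cross both 2-fold limits, and the scalings moved the median of all genes by at most 0.28. Depth limits genes with few counts, since 3 counts were worth 0.343 CPM in Th0 and 0.229 in Th17.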

Other observations

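Some of the gene groups not described above are given by their counts, beside 20.1% called higher and 12.4% called lower among all compared genes. Cytosolic aminoacyl-tRNA synthetases had 3 of 20 higher and 0 lower (median 0.24). Mitochondrial ribosomal proteins had 3 of 74 higher and 6 lower, and with library totals 5 and 2. Proteasome subunits had 0 of 37 higher and 5 lower, and with library totals 2 and 0. Splicing factors had 12 of 50 lower and 3 higher, with 5 lower under library totals and 7 when centred by GC content. In purine and pyrimidine synthesis 5 of 29 were higher and 7 lower, or 3 lower with FPKM. Iron handling genes had 2 of 14 higher and 1 lower, or 0 lower with library totals.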
